A study of Mus musculus with 80 samples.

Results

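The 8 genes studied here mark naive T cells and steer their traffic, and they were followed through whole blood of irradiated mice: the transcription factor genes Lef1, Tcf7, Bcl11b and Klf2, and the receptor genes Ccr7, Ccr9, S1pr1 and Il7r. They were chosen by symbol, as 8 of the 50365 gene rows kept from the deposited table, and all 8 passed the filter on low values that left 21101 genes for testing. Blood came from C57Bl/6 female mice, without a transgene or other allele in the labels, and 80 RNA-seq libraries in 14 groups were compared. The exposure called VarDR delivered dose at a falling rate that simulates internal caesium-137, and the exposure called Acute delivered the dose of the matching VarDR day at 0.73 Gy per minute. Irradiated VarDR groups were sampled on days 2 (n = 5), 3, 5 and 30 (n = 6 each), at cumulative doses of 2, 2.8, 4.1 and 9.7 Gy and labelled dose rates of 1, 0.77, 0.62 and 0.056 Gy per day. Irradiated acute groups were sampled on days 2 (n = 6), 3 (n = 3) and 5 (n = 6), with doses of 2, 2.8 and 4.1 Gy. Every irradiated group had its own sham-irradiated group of the same mode and day (n = 6 each). The labels give no age and do not say that each library is a separate animal, so p-values measure the spread between these libraries.

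A naive T cell leaves the thymus, circulates through blood and lymph, and enters lymph nodes through the chemokine receptor CCR7. It leaves them by following sphingosine-1-phosphate through S1PR1, whose gene is switched on by the factor KLF2, and it lives on interleukin-7 received through IL7R. LEF1 and TCF1 (the product of Tcf7) hold the naive state and are nuclear factors of the WNT pathway, BCL11B fixes T lineage identity, and CCR9 directs lymphocytes to the small intestine and thymus. Ccr7, S1pr1 and Klf2 are also expressed by B cells, which recirculate through the same organs.

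All 8 genes are protein coding, and their spans below come from GENCODE M21 on GRCm38. On the forward strand lie Lef1 (chromosome 3, 131110471 to 131224356), Klf2 (chromosome 8, 72319033 to 72321656) and Ccr9 (chromosome 9, 123678439 to 123784330). The reverse strand holds S1pr1 (chromosome 3, 115710433 to 115715072), Tcf7 (chromosome 11, 52252371 to 52283014) and Ccr7 (chromosome 11, 99144196 to 99155077). Bcl11b (chromosome 12, 107910403 to 108003602) and Il7r (chromosome 15, 9505788 to 9530176) are on the reverse strand too. Transcripts annotated on the opposite strand cover 13.8% of the exonic bases of Lef1 and 18.8% of those of Ccr9, and the sources used here do not say whether reads were assigned by strand, so values of these genes may hold some reads of their neighbours.

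RefSeq start windows on GRCm38.p6, the 250 bases before a start, were found for 6 of the 8 genes (10 windows, some overlapping). Both strands were searched for CCACCC, the core bound by KLF factors, which was in 7 of the 10 windows against 28.1% of all 32851 windows. CTTTGA, the core bound by TCF1 and LEF1, was in 2 of the 10 against 13.8% of all, GGAAGT (ETS factors) in 4 against 19.7%, and TGTGGT (RUNX factors) in 0 against 4614 of 32851; the 4 motifs do not overlap each other in the windows shown. The 3 windows printed here are of Klf2 and Lef1, which encode factors that bind these cores, and each holds matches. Other windows of Lef1 and those of Tcf7 are not printed. Among them, the Tcf7 window at chr11:52283015-52283264 had no match of any core. Capitals mark matches on either strand. The Klf2 window (chr8:72318812-72319061, forward strand) overlaps the annotated gene by 29 exonic bases and has 1 KLF core.
Klf2: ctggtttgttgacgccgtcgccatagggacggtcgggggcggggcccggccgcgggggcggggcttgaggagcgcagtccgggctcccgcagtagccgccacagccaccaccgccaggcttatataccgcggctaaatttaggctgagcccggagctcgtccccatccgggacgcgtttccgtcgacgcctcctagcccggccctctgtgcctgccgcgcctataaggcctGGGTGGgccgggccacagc
The other 2 windows shown lie inside Lef1 and outside annotated exons. The first (chr3:131112541-131112790, forward strand) has 2 KLF cores.
Lef1, start after 131112790: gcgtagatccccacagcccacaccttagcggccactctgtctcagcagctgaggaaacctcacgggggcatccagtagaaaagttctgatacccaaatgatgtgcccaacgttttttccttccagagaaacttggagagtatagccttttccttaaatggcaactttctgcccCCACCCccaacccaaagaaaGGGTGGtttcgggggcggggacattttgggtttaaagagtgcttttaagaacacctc
The other (chr3:131156044-131156293, forward strand) has 2 TCF and LEF cores and 1 ETS core.
Lef1, start after 131156293: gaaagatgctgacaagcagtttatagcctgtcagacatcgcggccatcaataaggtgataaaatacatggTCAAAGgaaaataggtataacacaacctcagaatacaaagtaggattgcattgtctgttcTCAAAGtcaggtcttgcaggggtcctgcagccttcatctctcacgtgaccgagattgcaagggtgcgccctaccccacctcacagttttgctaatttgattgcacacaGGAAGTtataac
A match of these letters is a description and not evidence of binding.

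Levels are read counts as scaled by the submitters and rescaled here so that each library has the same median ratio to the average library over the 11349 genes above 0 in all of them; they are not per length, so levels of different genes are not compared. Library totals as deposited were 15.9 to 77.7 M. In the deposited values the acute irradiated libraries stood above their shams as whole groups: taking the values as deposited raises the median gene by 0.45 on day 2, 0.90 on day 3 and 0.85 on day 5 (log2). All changes below are relative to the typical gene of a library. Differences are log2 irradiated minus sham ± standard error from limma, with p adjusted by Benjamini-Hochberg over all 21101 genes, and a gene rose or fell where adjusted p was under 0.05. Liver transcripts held over 0.5% of the signal in 14 of 38 irradiated and 6 of 42 sham libraries (at most 4.61%), and member calls that end without these libraries are named; their removal also leaves fewer libraries to test.

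**Figure D1:**
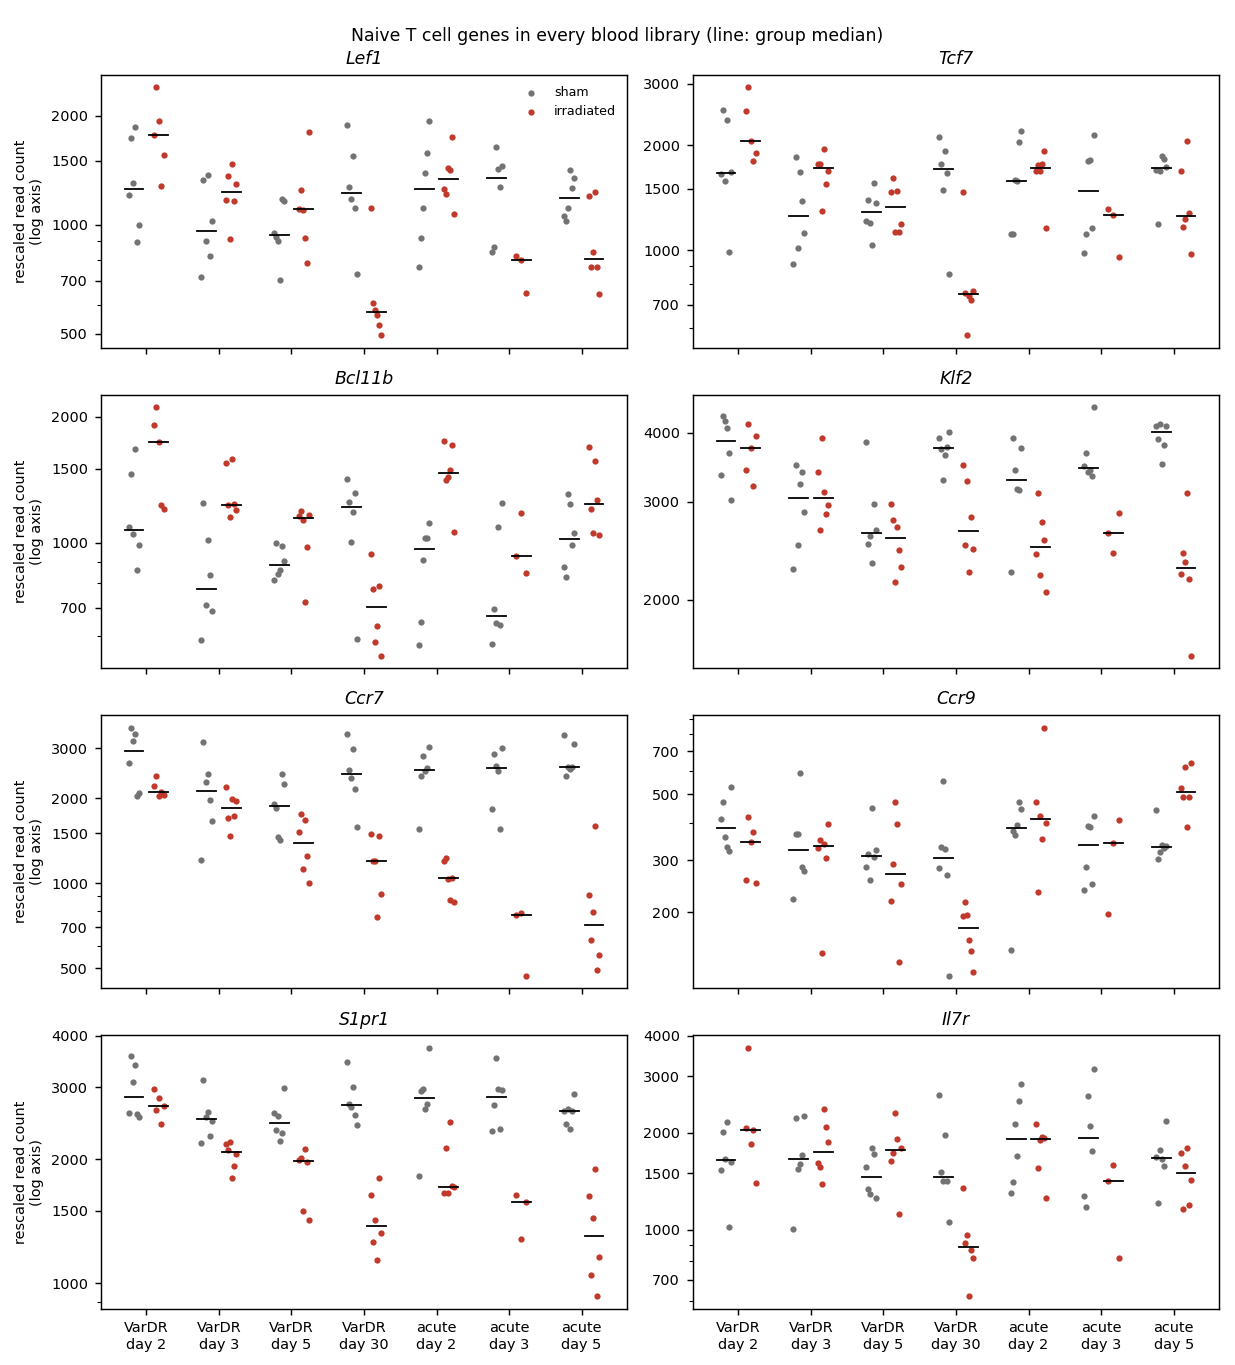
Rescaled read count (log axis, a separate scale for each gene) of the 8 genes in every library, by mode and day, sham in grey and irradiated in red; black lines are group medians. For Ccr7 all irradiated libraries lie below all shams on the 3 acute days and at VarDR day 30, and at VarDR day 30 the irradiated medians of all 8 genes are below those of the shams.

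During the first days of the falling dose rate these genes moved little. None of the 8 passed on day 2, where 3.27% of all genes did (limma), although 2 members had an unadjusted p under 0.05. On day 3 Bcl11b rose and no other member passed (10.4% of all genes did, 5.12% upward), and on day 5 S1pr1 fell and no other member passed (8.79% of all genes did, 3.38% downward). The median difference of the 8 was 0.17, 0.10 and -0.04 on days 2, 3 and 5, beside -0.04, -0.03 and 0.10 over all genes.

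Bcl11b was 1151 at the lowest, 1232 at the median and 1584 at the highest in irradiated blood on VarDR day 3, against 588, 775 and 1243 in the shams. The groups overlapped through sham library 2 alone. Bcl11b was higher by 0.68 ± 0.19 (1.6-fold, adjusted p = 0.00945, limma), but without the libraries rich in liver transcripts the difference was 0.47 with adjusted p = 0.267. On day 2 it was 1907, 2104, 1737, 1227 and 1203 in the 5 irradiated libraries, against shams from 863 to 1673 with a median of 1072. That difference of 0.46 ± 0.20 did not pass (adjusted p = 0.257), nor did the 0.21 ± 0.19 of day 5 (adjusted p = 0.57).

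S1pr1, the egress receptor, was 1420, 1985 and 2125 (lowest, median, highest) in irradiated blood on VarDR day 5 against 2216, 2455 and 2988 in the shams. No irradiated library reached the lowest sham, a separation shown by 0.905% of all genes. The difference of -0.46 ± 0.14 had adjusted p = 0.0205 by limma. It did not pass without irradiated library 3 (adjusted p = 0.0645), without irradiated library 6 (0.0724) or without sham library 6 (0.0656), nor with library weights (0.155) or when only the compared groups were fitted (0.177). On days 2 and 3 S1pr1 differed by -0.11 ± 0.14 and -0.30 ± 0.14, neither passing. Ccr7 differed by -0.35 ± 0.21, -0.15 ± 0.20 and -0.44 ± 0.20 on days 2, 3 and 5, also without passing.

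The remaining members gave no call over the first 5 days of VarDR. Lef1 differed by 0.44 ± 0.22, 0.28 ± 0.21 and 0.23 ± 0.21 on days 2, 3 and 5, and Tcf7 by 0.36 ± 0.21, 0.37 ± 0.20 and 0.04 ± 0.20. Il7r differed by 0.37 ± 0.23, 0.10 ± 0.22 and 0.21 ± 0.22. Klf2 stayed between -0.13 ± 0.13 and 0.10 ± 0.13, and Ccr9 between -0.30 ± 0.27 and -0.17 ± 0.26. The 95% intervals of these differences are wide: that of Lef1 on day 2 ran from 0.01 to 0.87.

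By day 30 all 8 members had fallen, where 12.5% of all genes fell and 25.1% passed in either direction (limma). Their median difference was -0.90, against -0.18 over all genes. In bulk blood, fewer cells of a type and less RNA per cell cannot be told apart, here or below. Ccr7 and S1pr1 were lower in every irradiated library than in any sham, as were 3.84% of all genes.

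Among the factors, Lef1 was 494, 573 and 1110 (lowest, median, highest) in irradiated blood at day 30 against 732, 1220 and 1879 in shams. Tcf7 was 571, 749 and 1473 against 856, 1712 and 2115. In both genes irradiated library 1 was the high one and sham library 6 the low one, and only library 1 overlapped the shams. The differences were -0.99 ± 0.21 for Lef1 (1.98-fold lower, adjusted p = 0.000159) and -0.98 ± 0.20 for Tcf7 (1.97-fold lower, adjusted p = 0.000145). Bcl11b was 538, 704 and 941 against 589, 1220 and 1423, a difference of -0.64 ± 0.19 (adjusted p = 0.00774) whose overlap came from sham library 6. Klf2 was 2240, 2662 and 3493 against 3288, 3751 and 4003, the smallest fall of the 8 at -0.43 ± 0.13 (adjusted p = 0.00847).

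Among the receptors, Ccr7 was 763, 1197 and 1496 in irradiated blood at day 30 against 1576, 2436 and 3353, a difference of -1.08 ± 0.20 (2.12-fold lower, adjusted p = 2.65e-05). S1pr1 was 1137, 1374 and 1806 against 2432, 2711 and 3461, a difference of -0.98 ± 0.14 (adjusted p = 1.05e-07). Il7r, the interleukin-7 receptor alpha chain, was 622, 888 and 1351 against 1055, 1464 and 2615, lower by 1.78-fold (-0.83 ± 0.22, adjusted p = 0.00245). These 3 calls held under every alternative fit and with any 1 library left out. Ccr9 was 126, 178 and 217 against 122, 305 and 555, where sham library 6 was below every irradiated one.

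The fall of Ccr9 at day 30 (-0.75 ± 0.26, adjusted p = 0.027) was the least secure. Quantile normalization ended the call (adjusted p = 0.0624), as did fitting only the compared groups (0.062). Leaving out irradiated library 5 or 6 gave adjusted p = 0.0533 or 0.0708, and leaving out sham library 2, 3 or 4 gave 0.0509, 0.12 or 0.0537.

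The day 30 response was set against that of day 5 in a test of the difference, in which 12.5% of all genes passed, 5.82% downward. Lef1 (-1.22 ± 0.29, adjusted p = 0.00327), Tcf7 (-1.02 ± 0.29, adjusted p = 0.0125), Il7r (-1.04 ± 0.31, adjusted p = 0.0169) and Bcl11b (-0.85 ± 0.27, adjusted p = 0.0248) were lower relative to sham on day 30 than on day 5, when none of the 4 was below sham. Without the libraries rich in liver transcripts Tcf7 gave -0.74 (adjusted p = 0.2), and without day 30 sham library 1 Bcl11b gave -0.78 (adjusted p = 0.0545). Ccr7 (-0.64 ± 0.29, adjusted p = 0.129), S1pr1 (-0.53 ± 0.19, adjusted p = 0.0546), Klf2 and Ccr9 did not pass. Total dose rose from 4.1 to 9.7 Gy between those days, so dose and time cannot be told apart. No member passed between the day 30 shams and the earlier VarDR shams (limma, 0 of all 21101 genes passed, 1767 with unadjusted p under 0.05), with differences from -0.28 to 0.25. With values as deposited all 8 were lower in the day 30 shams, but so was the median gene, at -0.74 against 0.05 after rescaling.

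**Figure D2:**
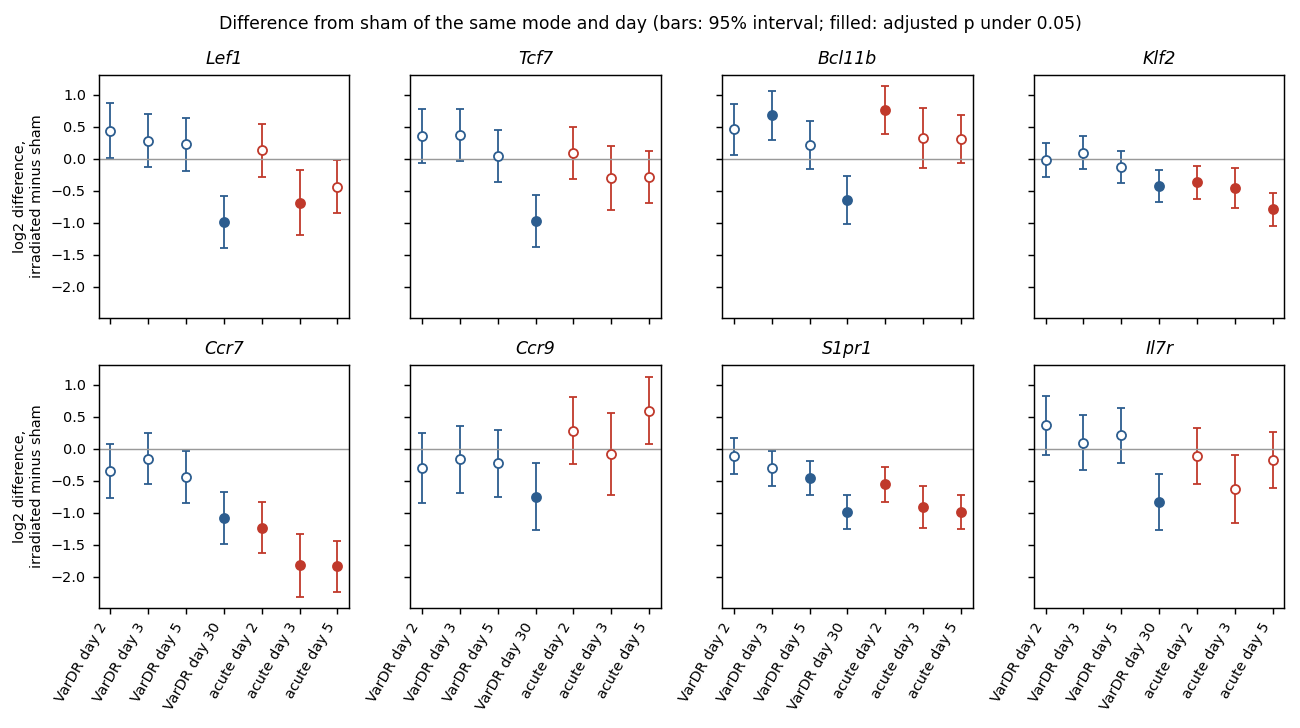
Log2 difference, irradiated minus sham, of each gene in the 7 comparisons (VarDR blue, acute red); points are limma estimates, bars 95% intervals and filled points have adjusted p under 0.05. Ccr7 is at -1.23, -1.82 and -1.84 after acute exposure and Bcl11b at 0.77, 0.32 and 0.31, while at VarDR day 30 all 8 points are filled and below 0. With values as deposited the sign turns from below to above 0 for Klf2 and Il7r on all 3 acute days. It also turns for S1pr1, Lef1, Tcf7 and Ccr9 on day 3, and for Lef1 and Tcf7 on day 5.

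Acute exposure split the 8 genes. On day 2, Ccr7, S1pr1 and Klf2 fell and Bcl11b rose, 4 of 8 beside 14.8% of all genes in either direction, 7.47% lower and 7.37% higher. On day 3, Ccr7, S1pr1, Klf2 and Lef1 fell (4 of 8, against 8.73% of all genes that fell and 20.6% in either direction), and on day 5, Ccr7, S1pr1 and Klf2 fell (3 of 8, against 9.12% and 18.9%). With values as deposited the balance turned: 4 members rose on day 2, 4 on day 3 and 5 on day 5, and Ccr7 alone fell on each day. Median differences of the 8 were -0.01, -0.54 and -0.36, beside 0.05, 0.30 and 0.02 over all genes.

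Ccr7 showed the largest change of any member in each acute comparison. It was 860, 1040 and 1224 (lowest, median, highest) on day 2 against 1560, 2521 and 3022 in shams. On day 3 the irradiated libraries held 772, 788 and 470 against 1549, 2544 and 3014, and on day 5 they held 495, 712 and 1594 against 2398, 2566 and 3343. No irradiated library reached a sham on any of the 3 days, a separation shown by 5.35%, 10.3% and 7.02% of all genes. The differences were -1.23 ± 0.20 (adjusted p = 1.23e-06), -1.82 ± 0.25 (adjusted p = 1.27e-08) and -1.84 ± 0.20 (adjusted p = 1.19e-11), or 2.35-, 3.52- and 3.57-fold lower. Ccr7 fell under every scaling and with any 1 library left out; with values as deposited the differences were -0.76, -0.80 and -0.88.

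S1pr1 was 1653, 1716 and 2474 on acute day 2 against 1827, 2829 and 3739, with overlap from sham library 1. Its irradiated libraries held 1638, 1280 and 1572 on day 3 against shams of 2352, 2835 and 3542, and 928, 1300 and 1896 on day 5 against 2373, 2626 and 2890. The groups were apart on days 3 and 5, when 10.3% and 7.02% of all genes lay below every sham. S1pr1 fell by 0.56 ± 0.14 on day 2 (adjusted p = 0.00123), by 0.91 ± 0.17 on day 3 (adjusted p = 1.36e-05) and by 0.99 ± 0.14 on day 5 (adjusted p = 1.15e-08), whereas with values as deposited no day passed (adjusted p = 0.689, 0.564 and 0.836) and the day 3 sign turned (0.11).

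Klf2 was 2060, 2487 and 3106 on acute day 2 against 2240, 3290 and 3913. On day 3 it was 2641, 2423 and 2868 against 3342, 3455 and 4443, and on day 5 it was 1584, 2280 and 3108 against 3518, 4003 and 4142. Overlap was confined to day 2, and 10.3% and 7.02% of all genes lay below every sham on days 3 and 5. The falls of 0.37 ± 0.13 (adjusted p = 0.0358), 0.45 ± 0.16 (adjusted p = 0.0295) and 0.79 ± 0.13 (adjusted p = 8.03e-07) became differences of 0.11, 0.56 and 0.16 with values as deposited, of which that of day 3 was called a rise (adjusted p = 0.00199). On day 2 the call was lost without irradiated library 1 (adjusted p = 0.0645), 3 (0.0927) or 6 (0.113) or sham library 2 (0.121), 3 (0.073) or 6 (0.102), and with only the compared groups (0.13). On day 3 it was lost without irradiated library 1 (0.0918) or 2 (0.158) or sham library 6 (0.0772), after quantile normalization (0.111) and without the libraries rich in liver transcripts (0.479), which leaves 1 irradiated library; that of day 5 held with any 1 library left out.

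Lef1 held 821, 801 and 649 in the 3 irradiated libraries of acute day 3, against shams of 842, 1348 and 1639 (lowest, median, highest). The groups were apart by a narrow gap, and 10.3% of all genes lay below every sham on that day. The fall of 0.68 ± 0.25 (adjusted p = 0.0446) became 0.33 above sham with values as deposited and was not called after quantile normalization (adjusted p = 0.0604) or with no filter on low values (0.0577). Without the libraries rich in liver transcripts, which leaves 1 irradiated library, the difference was -0.90 (adjusted p = 0.186). It was also lost without any of the irradiated libraries 1, 2 and 3 (adjusted p = 0.0871, 0.0957 and 0.18) or of the sham libraries 3, 4, 5 and 6 (0.102, 0.073, 0.0599 and 0.0847). Lef1 did not pass on day 2 (0.13 ± 0.21) or day 5 (-0.44 ± 0.21, adjusted p = 0.143).

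Bcl11b went the other way from Ccr7. It was 1062, 1466 and 1744 on acute day 2 against 571, 967 and 1115 in shams, where irradiated library 6 alone overlapped the shams. The rise of 0.77 ± 0.19 (1.7-fold, adjusted p = 0.00147) passed under every alternative and with any 1 library left out. On day 3 it held 931, 1179 and 845 against 575, 670 and 1242, and on day 5 it was 1046, 1235 and 1696 against 830, 1022 and 1304. Those differences, 0.32 ± 0.23 and 0.31 ± 0.19, did not pass (adjusted p = 0.338 and 0.287).

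Tcf7, Il7r and Ccr9 were not called on any acute day, although with values as deposited Tcf7 and Ccr9 rose on all 3 days and Il7r on day 5. Tcf7 differed by 0.08 ± 0.20, -0.30 ± 0.25 and -0.28 ± 0.20, and Il7r by -0.11 ± 0.22, -0.62 ± 0.27 and -0.18 ± 0.22. Ccr9 was 388, 509 and 637 on day 5 against 302, 332 and 443, all but 1 irradiated library above the shams. Its difference of 0.60 ± 0.26 had adjusted p = 0.104, and those of days 2 and 3 were 0.28 ± 0.26 and -0.08 ± 0.32. Over the 14 groups its median was lowest in irradiated blood of VarDR day 30 (178) and highest in that of acute day 5 (509).

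B cell markers fell in every comparison with sham, also on VarDR days 2, 3 and 5, when few members were called. All 14 fell on each acute day, with median differences of -2.08, -2.42 and -3.67, and 11, 10, 14 and 14 of 14 fell on VarDR days 2, 3, 5 and 30, with medians of -0.90, -0.72, -1.44 and -1.28. Their summed level was 6114 to 8349 in irradiated blood on acute day 5 against 52828 to 61526 in shams, and none of the 14 was at 0 in any library. At VarDR day 30 it was 16644 to 31727 against 42346 to 60489. Red cell markers also moved: all 8 fell on acute days 2 and 3 (medians -4.64 and -6.82), 4 of 8 fell on day 5 (median -1.17) and all 8 rose at VarDR day 30 (median 1.63). After quantile normalization 1 of the 8 red cell markers rose at VarDR day 30 (median 0.35), and with values as deposited 1 rose and 1 fell on acute day 5 (median -0.21). Of 8 platelet markers 7, 8, 8 and 8 rose on VarDR days 2, 3, 5 and 30 (median 1.36 on day 30, where quantile normalization left 4, with a median of 0.31), and of 10 neutrophil markers 3, 6, 3 and 4 rose and none fell. The part of any of these lists in the members' results was not tested.

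The 2 exposures were compared directly, each against its own sham. At 2 Gy on day 2 none of the 8 differences in response passed (1.59% of all genes did, limma; 2 members had unadjusted p under 0.05), with Ccr7 at -0.88 ± 0.29 (adjusted p = 0.14) for acute minus VarDR. At 2.8 Gy on day 3 the response of Ccr7 was lower after acute exposure (-1.67 ± 0.32, adjusted p = 0.000271), 1 of 8 beside 2.51% of all genes (1.85% lower); with values as deposited it was -0.66 (adjusted p = 0.0876). At 4.1 Gy on day 5, where 2.66% of all genes passed (1.65% lower), Ccr7 differed by -1.39 ± 0.29 (adjusted p = 0.00144) and Klf2 by -0.66 ± 0.18 (adjusted p = 0.0266). Without the libraries rich in liver transcripts, which leaves 2 irradiated VarDR libraries on day 5, these became -0.52 (adjusted p = 0.493) and -0.10 (adjusted p = 0.873). With values as deposited they were -0.43 (adjusted p = 0.265) and 0.30 (adjusted p = 0.214). The Klf2 call was also lost with only the compared groups (adjusted p = 0.097) and without VarDR irradiated library 1 (0.0559), VarDR sham library 4 (0.0552) or acute irradiated library 6 (0.0687).

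S1pr1 gave -0.44 ± 0.20, -0.60 ± 0.21 and -0.53 ± 0.19 in these tests on days 2, 3 and 5 (adjusted p = 0.426, 0.122 and 0.119). Bcl11b gave 0.30 ± 0.27, -0.35 ± 0.30 and 0.10 ± 0.27. Neither gene was shown to respond differently to the 2 exposures, and the intervals reach from -1.03 to -0.17 for S1pr1 on day 3 and from -0.95 to 0.24 for Bcl11b.

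To set the members against T cell RNA of the same library, the mean log2 level of Cd3d, Cd3e and Cd3g, which encode the signalling chains of the T cell receptor complex, was subtracted from every gene. Apart from the added pseudocount, this quantity does not depend on how columns were scaled. Of the 3, Cd3e rose on acute day 2 (0.88 ± 0.25, adjusted p = 0.00751) and day 5 (0.71 ± 0.25, adjusted p = 0.0356) and fell at VarDR day 30 (-0.80 ± 0.25, adjusted p = 0.0133), and Cd3g rose on acute day 2 (0.80 ± 0.22, adjusted p = 0.00545). Cd3d was not called in any comparison with sham. Relative to them, 6 of 8 members fell on acute day 2 (23.4% of all genes fell and 25.4% passed in either direction), 4 on day 3 (6.21% and 10.3%) and 5 on day 5 (13.1% and 16.2%), and none rose. The median relative difference of the 8 was -0.64, -0.66 and -0.74 on these days, beside -0.58, 0.18 and -0.36 over all genes. On day 2 Lef1 and Tcf7 fell less than the median gene. All 14 B cell markers fell relative to CD3 on each acute day, with medians of -2.70, -2.54 and -4.05. Ccr7, S1pr1 and Klf2 are also expressed by B cells, and the part of B cells in their relative differences was not tested.

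**Figure D3:**
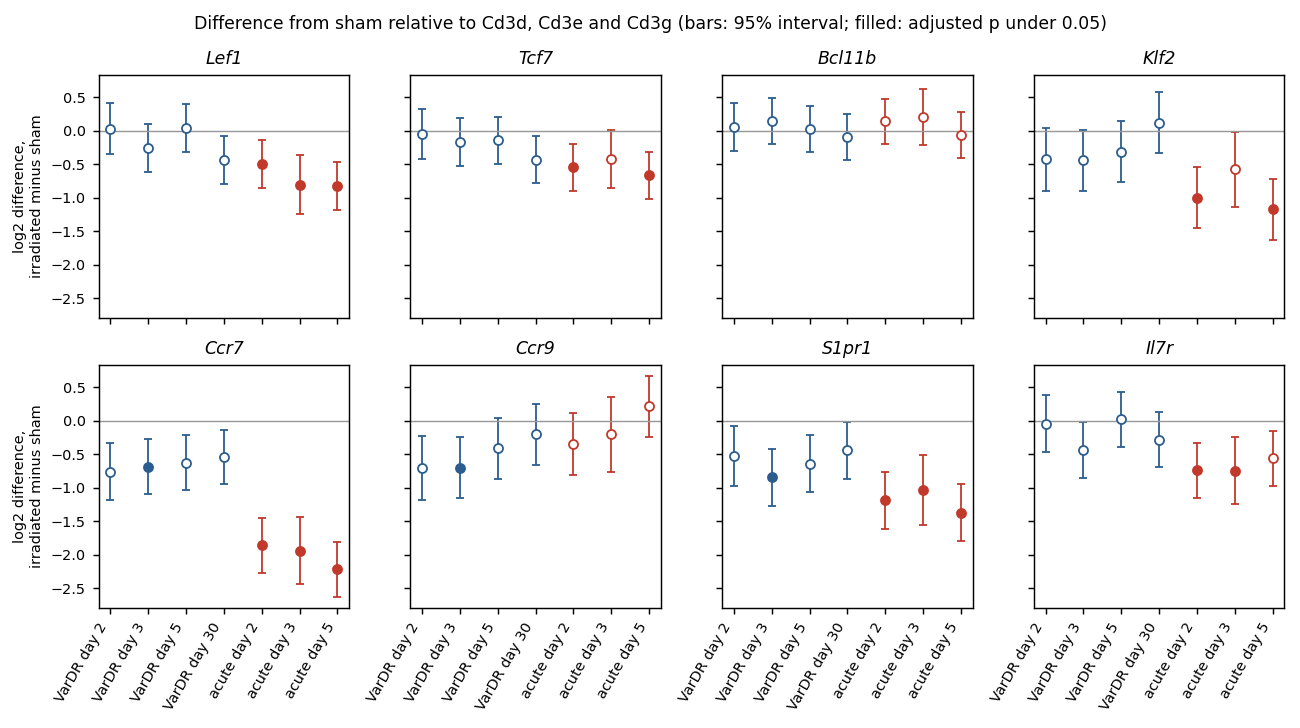
Log2 difference, irradiated minus sham, after subtracting the mean log2 level of Cd3d, Cd3e and Cd3g in each library (VarDR blue, acute red); bars are 95% intervals and filled points have adjusted p under 0.05. Ccr7 lies between -2.22 and -1.86 after acute exposure, Bcl11b between -0.10 and 0.20 in all 7 comparisons, and no point is filled at VarDR day 30.

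The relative difference of Ccr7 was -1.86 ± 0.21 on acute day 2 (adjusted p = 1.05e-11), -1.94 ± 0.25 on day 3 (adjusted p = 4.16e-09) and -2.22 ± 0.21 on day 5 (adjusted p = 1.3e-14). S1pr1 followed at -1.18 ± 0.21, -1.03 ± 0.26 and -1.37 ± 0.21 (adjusted p = 1.18e-05, 0.00375 and 7.05e-07). Klf2 was at -0.998 ± 0.23 on day 2 and -1.17 ± 0.23 on day 5 (adjusted p = 0.000585 and 6e-05), and did not pass on day 3 (-0.57 ± 0.28). Lef1 was at -0.49 ± 0.18, -0.81 ± 0.22 and -0.82 ± 0.18 (adjusted p = 0.0339, 0.00792 and 0.000401), and Tcf7 passed on day 2 (-0.55 ± 0.18, adjusted p = 0.0167) and day 5 (-0.66 ± 0.18, adjusted p = 0.00439). Il7r passed on day 2 (-0.74 ± 0.21, adjusted p = 0.00529) and day 3 (-0.74 ± 0.25, adjusted p = 0.0452), and was at -0.56 ± 0.21 on day 5 (adjusted p = 0.0517). Without the libraries rich in liver transcripts, calls of Lef1, Tcf7 and Il7r ended on the days they were made, as did those of Klf2 on day 2 and S1pr1 on day 3. The differences without them were -0.38, -0.99 and -0.66 for Lef1 on days 2, 3 and 5, -0.38 and -0.50 for Tcf7 on days 2 and 5, and -0.69 and -1.30 for Il7r on days 2 and 3. They were -0.90 for Klf2 on day 2 and -0.92 for S1pr1 on day 3. Of all these, only Lef1 and Il7r on day 3 were at least as large as before, with 1 irradiated library left. The rest were smaller in size. With only the compared groups, Lef1 and Tcf7 were lost on day 2 (adjusted p = 0.0753 and 0.0645) and Lef1 and Il7r on day 3 (0.0708 and 0.123), and Il7r on day 3 was lost with no filter on low values (0.0817). Single libraries decided some of them as well. On day 2 Lef1 was lost without irradiated library 1 or 6 (adjusted p = 0.0961 and 0.0561) or sham library 1, 2 or 6 (0.0801, 0.0593 and 0.0651), and Tcf7 without sham library 1 (0.0644). On day 3 leaving out irradiated library 2 ended the calls of Lef1, S1pr1 and Il7r (adjusted p = 0.0624, 0.0953 and 0.0789), irradiated library 3 those of Lef1 and Il7r (0.0711 and 0.379), and sham library 3, 5 or 6 that of Il7r (0.113, 0.0503 and 0.0794).

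Bcl11b lay close to CD3: its relative difference was between -0.10 ± 0.17 and 0.20 ± 0.21 in the 7 comparisons, with no call. Ccr9 was between -0.35 ± 0.23 and 0.22 ± 0.23 after acute exposure, again with no call. Relative to CD3 the median of the 8 on VarDR day 3 was -0.44, beside -0.56 over all genes. On that day Ccr7 (-0.69 ± 0.21, adjusted p = 0.0149), S1pr1 (-0.84 ± 0.21, adjusted p = 0.00381) and Ccr9 (-0.70 ± 0.23, adjusted p = 0.0273) fell relative to CD3, 3 of 8 beside 14.4% of all genes (15.1% in either direction). Those calls ended without the libraries rich in liver transcripts (adjusted p = 0.0929, 0.102 and 0.133), where the differences were -0.74, -0.75 and -0.72. That of Ccr9 also ended with no filter on low values (0.0568), with only the compared groups (0.0808), with the wider pan-T reference (0.0526), without irradiated library 3 or 4 (0.0742 and 0.0589) or sham library 1, 3 or 5 (0.0542, 0.07 and 0.0563). At VarDR day 30, where all 8 levels had fallen, no member passed relative to CD3 (limma; 1.04% of all genes fell and 19.3% rose, 20.4% in all, and 4 members had unadjusted p under 0.05). The members were at -0.54 ± 0.21 for Ccr7, -0.44 ± 0.18 for Lef1 and -0.43 ± 0.18 for Tcf7 (adjusted p = 0.051, 0.0715 and 0.0738), and at -0.10 ± 0.17 for Bcl11b and 0.12 ± 0.23 for Klf2. With a wider reference of 13 pan-T genes, which leaves out the CD3 genes, 5 of 8 fell at day 30, so the result rests on the reference. The share of all genes that fell under it is not given here, so that count cannot be set against it. On VarDR days 2 and 5 none passed (0.839% and 3.59% of all genes did; 3 and 2 members had unadjusted p under 0.05).

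**Figure D4:**
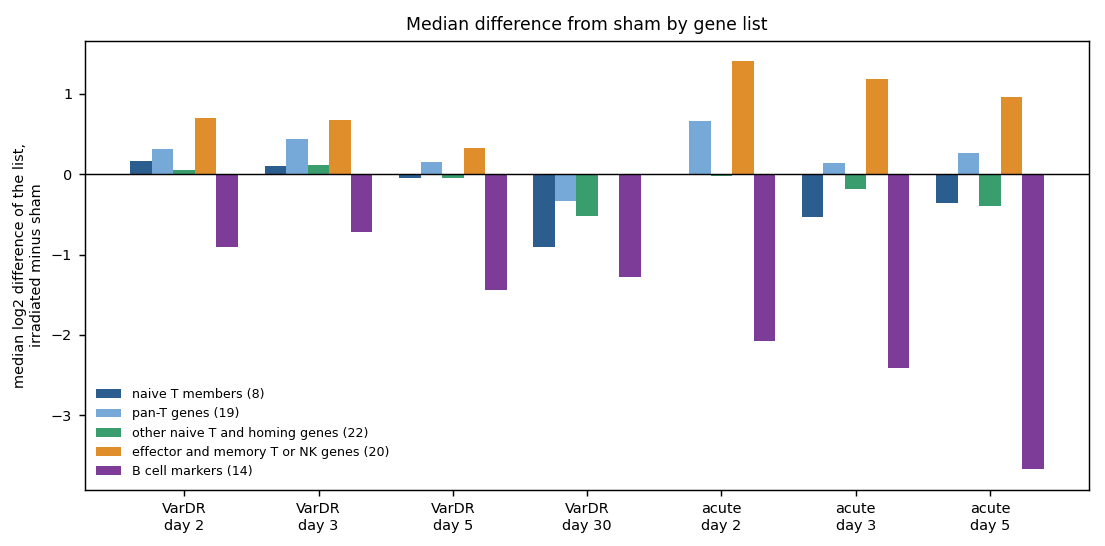
Median log2 difference, irradiated minus sham, of 5 gene lists in the 7 comparisons (bars from 0, number of genes in the key). The 8 naive T genes and the 22 related genes are at -0.90 and -0.52 at VarDR day 30, effector and NK genes at 1.40, 1.19 and 0.96 after acute exposure, and B cell markers at -2.08, -2.42 and -3.67; with values as deposited the 22 related genes lie above 0 on all acute days.

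Other genes of the naive T and homing programme were counted in the same fits. Of 22, 14 fell and none rose at VarDR day 30 (median -0.52), led by Foxo1, the factor upstream of Klf2 (-1.10 ± 0.17, adjusted p = 1.46e-06), and Ets1, a lymphoid ETS factor (-0.83 ± 0.13, adjusted p = 1.81e-06). After acute exposure 5, 7 and 10 of 22 fell and 5, 4 and 5 rose on days 2, 3 and 5, whereas with values as deposited 3, 2 and 3 fell and 10, 15 and 12 rose. Gpr183, an oxysterol receptor that positions lymphocytes, fell on day 2 (-1.55 ± 0.19, adjusted p = 5.36e-10) and day 3 (-1.69 ± 0.23, adjusted p = 1.99e-08). Cxcr4, the receptor that retains cells in bone marrow, fell on day 5 (-2.58 ± 0.23, adjusted p = 9e-15), while Actn1, a cytoskeletal crosslinker that platelets also express, rose on each acute day (1.56 to 1.93). All 8 platelet markers rose and all 14 B cell markers fell on those days, and all 14 B cell markers also fell at VarDR day 30. The part of B cells or platelets in the changes of these 22 genes was not tested. On VarDR days 2, 3 and 5, 2, 3 and 3 of the 22 rose and 0, 0 and 2 fell.

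Pan-T genes were counted as well. Of 19, 10 rose and none fell on acute day 2 (median 0.66), including Zap70 (1.06 ± 0.21, adjusted p = 4.31e-05) and Thy1 (1.08 ± 0.22, adjusted p = 0.000102), a signalling kinase and a surface glycoprotein of T cells. On days 3 and 5, 1 and 4 rose and 2 and 3 fell, and the genes that fell with the smallest p on both were the coreceptor genes Cd8a (-0.99 ± 0.28 and -1.07 ± 0.23) and Cd8b1 (-1.75 ± 0.34 and -1.28 ± 0.28); with values as deposited 16, 16 and 17 of the 19 rose on acute days 2, 3 and 5 and none fell. At VarDR day 30, 5 of 19 fell and none rose (median -0.33), led by Cd8a (-1.23 ± 0.23, adjusted p = 2.84e-05). On VarDR days 2, 3 and 5 the numbers that rose were 0, 3 and 0 and none fell.

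Genes of effector and memory T cells and NK cells rose after acute exposure, 17, 14 and 12 of 20 on days 2, 3 and 5 with 1, 0 and 1 falling (medians 1.40, 1.19 and 0.96). They were led by Cd44, an adhesion receptor of activated and memory cells that other leukocytes also carry (1.26 ± 0.15, 1.52 ± 0.18 and 1.27 ± 0.15), and Id2, a regulator of effector and innate lymphocytes (1.59 ± 0.18, 1.43 ± 0.23 and 1.43 ± 0.18). On VarDR days 2, 3 and 5, 2, 7 and 1 rose and 1, 0 and 2 fell. At day 30 none rose and 1 fell, the integrin gene Itgae (-0.87 ± 0.28, adjusted p = 0.0145). Of 6 genes listed as T precursor and thymic genes 3 fell and none rose at day 30 (median -0.85), when 2 of the 6 were at 0 in all irradiated libraries. Falls in this list were not confined to day 30, as Rag1 also fell on VarDR days 2 and 5 and acute days 2 and 5. All 14 B cell markers fell at day 30 too, and which cells the falls in this list came from was not tested.

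Over the 14 group means, each centred on its own average, members were compared by the root-mean-square distance of their log2 patterns. Lef1 and Tcf7 were the closest pair at 0.11 and Ccr7 and Bcl11b the farthest at 0.77. Among 10876 genes with a mean level of at least 50, those nearest to Ccr7 were Gpr183, Icosl and P2ry10 (0.17, 0.18 and 0.20). For S1pr1 they were Fam169b, Pde4b and Prkcb (0.11, 0.11 and 0.12). Lef1 was nearest to Itgae, St8sia1 and Sidt1 (0.12 to 0.13), Tcf7 to Kif21b, Ablim1 and Satb1 (0.12 to 0.13), and Il7r to Surf6, Usp53 and Peli1 (0.14 to 0.15). For Klf2 they were Cnr2, Rcc2 and Ezr (0.082 to 0.089). Bcl11b was nearest to Midn, Inpp1 and Scd2 (0.13 to 0.15), and Ccr9 to Snrpd3, Tespa1 and Zadh2 (0.19). The distances are in log2 units and not scaled to a gene's own variation, which ran from 0.25 for Klf2 to 0.65 for Ccr7, so they do not rank the members. They describe 14 group means, for which the labels give no sequencing batch.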

How the data were processed

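Gene-level signal was deposited for 80 whole-blood libraries, with 82 value columns and 50391 rows; 2 columns match no sample and were not used, and 26 rows whose identifiers are spreadsheet date numbers were dropped (up to 0.471% of a library's signal). The signal values are non-whole read counts scaled between libraries by the authors; tools named in the submitters' processing notes, without roles or order, are kallisto 0.44.0, DESeq2, sleuth and bcl2fastq 2.19, with GRCm38, and the scaling factors are not given in the sources used here. Per the labels' protocols, blood from cardiac puncture was globin-cleared and ribosome-depleted before stranded library preparation. The deposited sheet is titled for another tissue, but its column names match the blood samples' titles. Whole reads could not be recovered (2.06 to 54.3% of low values were whole multiples of a common step within 0.01), so no count model was used and counting intervals are not given.

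Each column was rescaled here so that medians of ratios were equal, because acute irradiated columns as deposited stood above their shams as whole groups; whether the authors scaled these groups apart is not given in the sources used here, and several acute calls depend on this choice. Genes at 10 or more in at least 3 libraries (21101) entered 1 limma fit (version 3.58.1, R 4.3.3) of log2(value + 1) with a mean for each of the 14 groups, trended and robust variances, and Benjamini-Hochberg adjustment in each comparison; the scale understates changes of low genes. On simulated data for the comparisons with sham, the fit recovered 24.7 to 37.0% of 73 genes changed 2-fold among 21101, with no wrong sign. The alternatives tried were values as deposited, quantile normalization, a pseudocount of 0.1, no filter, a mean of at least 50, library weights, only the compared groups, a wider pan-T reference in place of CD3, and leaving out each library. The wider reference held 13 pan-T genes, without Cd3d, Cd3e, Cd3g, Cd4, Cd8a and Cd8b1. Leaving out libraries with over 0.5% liver markers (25 genes) was added after seeing the data. Members and gene lists were chosen with earlier results of these data known. Members are named in every comparison; of other lists the 2 genes of smallest p could be named. Tables were made with Python 3.11.15, numpy 2.4.6 and pandas 2.3.3. Start windows are from RefSeq on GRCm38.p6.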

Additional observations from a re-analysis of the deposited data

Results flagged for a closer look

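Of 104 sets of 1 gene in 1 group of 5 or 6 libraries, 9 had a library far from its group by Dixon's criterion, where chance gives about 1 in 20. In irradiated blood of VarDR day 30, library 1 was the highest for Lef1 at 1110 (others 494 to 606) and for Tcf7 at 1473 (others 571 to 765). In shams of acute day 2, library 1 was the lowest for Ccr7 at 1560 (others 2387 to 3022) and for Ccr9 at 149 (others 365 to 473). Tcf7 was lowest in irradiated library 6 of acute day 2 at 1158 (others 1687 to 1925) and in sham library 2 of acute day 5 at 1188 (others 1692 to 1867). Klf2 was highest in sham library 6 of acute day 3 at 4443 (others 3342 to 3674). Ccr9 was lowest in irradiated library 3 of VarDR day 3 at 146 (others 305 to 397) and highest in sham library 1 of acute day 5 at 443 (others 302 to 338).

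Responses differed between groups in 7 tests of the difference itself. Acute minus VarDR, Ccr7 gave -1.67 on day 3 and -1.39 on day 5, and Klf2 gave -0.66 on day 5. For the VarDR response of day 30 minus day 5, Lef1 gave -1.22, Tcf7 -1.02, Il7r -1.04 and Bcl11b -0.85. No cause of these values was tested.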

How the results depend on the processing

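No paired analysis was possible because the labels give no replicate numbers; those used here only name libraries. A pseudocount of 0.1 changed no call. With values as deposited, 4 members were higher and 1 lower on acute days 2 and 3, and 6 of 8 passed on acute day 5 (5 higher, 1 lower) and 8 in the day 30 shams (all lower), and signs turned for Il7r (0.37, 0.39 and 0.77 on acute days 2, 3 and 5), Klf2 (0.11, 0.56 and 0.16, and 0.30 for acute minus VarDR on day 5), Lef1 (0.33 and 0.51 on days 3 and 5), Tcf7 (0.71 and 0.67 on days 3 and 5), and S1pr1 and Ccr9 (0.11 and 0.93 on day 3). As deposited, the median gene of the day 30 shams was itself at -0.74 against the earlier VarDR shams. After quantile normalization 2 passed on acute day 3 and Tcf7 was at -0.017 on VarDR day 5. With library weights the number passing was 1 on VarDR day 2, 0 on VarDR day 5, 5 on acute day 5, 1 and 4 for acute minus VarDR on days 2 and 3, and, relative to CD3, 3, 5 and 1 on VarDR days 2, 3 and 5, where Lef1, Il7r and Bcl11b were at -0.13, -0.18 and -0.035 on day 5. With only the compared groups it was 0 on VarDR day 5, 1 for acute minus VarDR on day 5, and 2 relative to CD3 on acute day 3. A mean of at least 50 gave 1, 1 and 3 relative to CD3 on VarDR days 2, 5 and 30. The wider pan-T reference gave 2 and 5 on VarDR days 5 and 30, with Tcf7 at 0.041 and Il7r at 0.050 on day 2 and Klf2 at -0.11 on day 30. Shares of all genes passing under these alternatives are not given here.

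Without the libraries over 0.5% liver markers (1 irradiated library left on acute day 3, assumed to vary like the other groups, and 2 on VarDR day 5), 0, 2 and 2 passed on VarDR day 3, VarDR day 5 and acute day 3, and 0 for acute minus VarDR on day 5. Relative to CD3, 0 passed on VarDR day 3 and 2, 1 and 3 on acute days 2, 3 and 5. Signs turned for Il7r and Klf2 on VarDR day 3 (-0.13 and -0.048), for Tcf7 and Ccr9 on VarDR day 5 (-0.24 and 0.17, and 0.31 for Ccr9 relative to CD3) and for Ccr9 on acute day 3 (0.35, and 0.26 relative to CD3). The cause of these changes was not tested.

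Leaving out 1 library at a time, the number passing on VarDR days 2, 3, 5 and 30 was 0 to 0, 1 to 1, 0 to 1 and 7 to 8, and on acute days 2, 3 and 5 it was 3 to 4, 2 to 5 and 3 to 3. The lowest counts came without irradiated library 3 or 6 or sham library 6 of VarDR day 5, and without irradiated library 1 or 2 or sham library 6 of acute day 3. For acute minus VarDR it was 0 to 0, 1 to 1 and 1 to 3 on days 2, 3 and 5 (1 without VarDR irradiated library 1, VarDR sham library 4 or acute irradiated library 6), for day 30 minus day 5 it was 3 to 5, and for the day 30 shams 0 to 0. Relative to CD3 it was 0 to 2 (2 without sham library 4), 2 to 4, 0 to 2 (1 without irradiated library 5, 2 without sham library 6) and 0 to 3 (3 without irradiated library 1, 1 without irradiated library 5 or 6 or sham library 3) on VarDR days 2, 3, 5 and 30. On acute days 2, 3 and 5 it was 4 to 6, 1 to 4 (1 and 2 without irradiated libraries 2 and 3) and 5 to 6. Signs that turned were all of uncalled differences, with ranges on VarDR day 2 of -0.084 to 0.027 (Klf2), on VarDR day 3 of -0.045 to 0.19 (Il7r) and -0.28 to 0.038 (Ccr9), on VarDR day 5 of -0.018 to 0.10 (Tcf7), on acute day 2 of -0.0012 to 0.27 (Lef1), -0.013 to 0.18 (Tcf7) and -0.22 to 0.0038 (Il7r), and on acute day 3 of -0.30 to 0.23 (Ccr9). Relative to CD3 they were on VarDR day 2 -0.036 to 0.12 (Lef1), -0.11 to 0.013 (Tcf7), -0.20 to 0.046 (Il7r) and -0.0049 to 0.13 (Bcl11b), on VarDR day 5 -0.17 to 0.11 (Lef1), -0.17 to 0.18 (Il7r) and -0.12 to 0.14 (Bcl11b), and after acute exposure -0.43 to 0.021 (Ccr9, day 3) and -0.15 to 0.013 (Bcl11b, day 5).

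Depth per library cannot be read from scaled values, and a member that did not pass is not shown to be unchanged. The 24.7 to 37.0% of 2-fold changes recovered on simulated data are for genes drawn at random from all those tested. That share was not measured for the members.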
